A study of Mus musculus with 7 samples.

Results

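The transcriptome of TRAMP-C1 cells without the PAX8-NFE2L2 fusion is described here from the 4 libraries of the series, of 7 in all, that carry no fusion: the 3 titled Empty vector and the 1 titled WT. They were chosen by title alone, and no value entered the choice. TRAMP-C1 is a line from a prostate tumour of a TRAMP mouse, the strain given as C57BL/6-TgN(TRAMP)8247Ng, in which a probasin promoter drives the SV40 early region in prostate epithelium. The labels call the cells prostate epithelial. The empty vector cells received Lv229 lentivirus without an insert for 12 h and grew for another 24 h in fresh medium. The WT title names no vector, while the protocol text is shared by all samples, so whether those cells met virus cannot be told from the labels. All 4 libraries share the line, the strain and the culture medium. The viral transgene has no row among the genes and was not analysed here. No test of empty vector against WT was made. Nothing in the labels says that replicates are separate cultures, so the spread between them may be technical, and all are of 1 line.

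A prostate gland is built of luminal cells, which make secretory proteins under androgen, of basal cells, of rare neuroendocrine cells and of a stroma of smooth muscle and fibroblasts. Epithelial cells hold on to each other through E-cadherin, keratins and tight junctions. Factors such as Zeb1, Snai2 and Twist1 shut that programme in cells that take on mesenchymal features, and such cells make vimentin, fibrillar collagen and fibronectin.

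Between 40089266 and 59597170 reads fell on genes in a library. Replicate 3 of the empty vector stood apart from the start: it was sequenced in lane 1, the other 3 libraries in lanes 5 and 6, it had the fewest reads on genes, 45.3% of its reads aligned to more than 1 place against 36.1 to 38.9% in the rest, and its mitochondrial share was 4.97% against 2.80 to 3.94%. Levels are given as CPM, counts per 1000000 reads on genes with trimmed-mean (TMM) scaling, when libraries are compared for 1 gene. Levels of different genes are compared as TPM, which also divides by the length of the merged exons. Values listed in fours stand in the order empty vector replicate 1, 2 and 3 and then WT. Means and SD are over the 3 empty vector libraries. In these bulk samples a change in the number of cells of a kind and a change in RNA per cell cannot be told apart.

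Of 46603 gene rows, 13194 (28.3%) had a mean above 1 CPM in the empty vector libraries. Of the 21624 protein-coding genes 11590 (53.6%) were above 1 CPM, 6773 (31.3%) were silent, here meaning 3 reads or fewer over the 3 libraries together, and 3261 lay between. Counts of list and family members below are to be read against these shares. The WT library put 13110 genes above 1 CPM, and 12828 genes were above it in both. None of the silent genes of the empty vector libraries exceeded 1 CPM in WT, and 209 had more than 3 reads there. The 100 most read genes of a library took 18.2% ± 1.49 (SD, n = 3) of its reads, and between 1022 and 1164 genes were needed to reach 50 percent of them.

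The most abundant transcripts by length were mitochondrial mt-Co1 and mt-Cytb, then 2 nuclear genes at nearly the same level. Spp1, which encodes the secreted phosphoprotein osteopontin (chr5:104435118-104441050 in GRCm38, plus strand), reached 6029, 9791, 11673 and 5718 CPM. It was lowest in WT and in replicate 1, and highest in replicate 3. Its mean level was 19340 ± 5299 TPM. Lgals1, the gene of the secreted lectin galectin-1 (chr15:78926725-78930465, plus strand), was at 4021, 4405, 6551 and 4913 CPM, again highest in replicate 3, and at 19236 ± 4220 TPM. The difference between the pair is far inside the SD of either. A gap followed, since the next nuclear gene, Rpl8 of the large ribosomal subunit, was at 3667 ± 185 TPM. The chaperone Hsp90ab1 was at 3600 ± 1476 TPM and the calcium-binding S100a6 at 3542 ± 384 TPM. Elongation factor Eef2 had 2903 ± 978 TPM and the cytoplasmic actin Actb 2696 ± 864 TPM. Thbs1, the matrix protein thrombospondin-1, held 2541 ± 657 TPM, Vim, the intermediate filament vimentin, 2229 ± 432 TPM, and P4hb, a folding enzyme and subunit of collagen prolyl hydroxylase, 2095 ± 132 TPM. The remaining places among the first 15 nuclear genes went to Rplp1, Rpl4 and the processed pseudogenes Gm9794, Tpt1-ps3 and Gm9843. The pseudogenes have only 423, 519 and 402 bases of exon, and reads that align to several places were not counted. Whether their reads come from the pseudogenes or from the genes they copy is uncertain, and so are their ranks. Only 1 of the 14 neighbouring pairs among the first 15 did not overlap between the 3 libraries, so most of the order is within the spread. Counted by reads instead, mt-Co1, Spp1, mt-Cytb, Lgals1 and Col1a2 led.

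**Figure D1:**
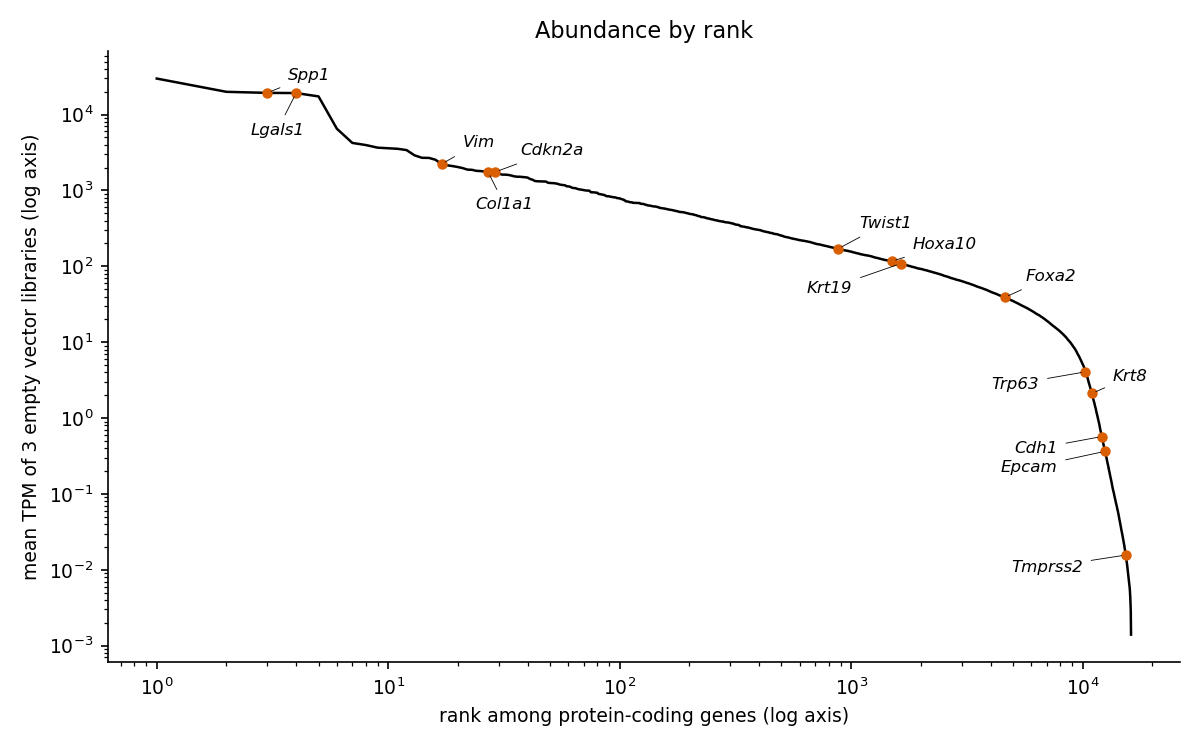
Mean TPM of the 3 empty vector libraries (vertical, log axis) against the rank of protein-coding genes (horizontal, log axis), with named genes as orange points. Spp1 and Lgals1 sit together near 19340 and 19236 TPM, Cdkn2a, Col1a1 and Vim follow on the same shoulder, and Cdh1, Epcam and Tmprss2 lie under 1 TPM.

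Housekeeping genes did not all stand high. Reads of Gapdh, the glycolytic enzyme often used as a reference, were only 19.03, 16.2, 21.4 and 17.3 CPM, and Ppia, the gene of cyclophilin A, had 13.2, 9.72, 16.4 and 12.7 CPM. All 16 reference genes listed were above 1 CPM, with a median of 198 TPM. Reads that align to several places stand in a row of their own and not under a gene. Both genes have many near-identical processed copies, and the part of such reads in these levels was not tested. Of genes for the 13 proteins encoded by the mitochondrial genome 7 were above 1 CPM and the other 6 were silent, among them mt-Co2, mt-Atp6 and mt-Nd3 with at most 2 reads in a library. Reads that align to several places are missing from these rows too. Silent here therefore does not show that the transcript is absent, and the part of such reads was not tested.

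The CG content of promoters differed between abundance classes. Here a promoter is the RefSeq window of GRCm38.p6 from 250 bases before to 50 after a gene's start, for the 13676 protein-coding genes with a single window. The median ratio of observed to expected CG pairs was 0.183 in silent genes, 0.395 up to 1 TPM, 0.685 from 1 to 10 TPM, 0.810 from 10 to 100 TPM and 0.824 from 100 to 1000 TPM. Over 1000 TPM it was 0.719 in 41 windows. The letters TATAAA, searched on the strand of the gene, were in 17.6% of silent windows, 3.73% of those from 10 to 100 TPM and 24.4% of those over 1000 TPM, against 9.24% of all. A gene of the class from 100 to 1000 TPM and a silent gene show the contrast in CG pairs, with every CG in capitals. Both windows hold TATAAA. Twist1, a mesenchymal regulator at 57.3, 90.9, 90.1 and 60.7 CPM, has 27 CG pairs in its window (chr12:33957421-33957720, plus strand). Pbsn, the probasin gene of prostate secretion with 0 reads in all 4 libraries, has 2 CG pairs (chrX:77853451-77853750, minus strand).
Twist1: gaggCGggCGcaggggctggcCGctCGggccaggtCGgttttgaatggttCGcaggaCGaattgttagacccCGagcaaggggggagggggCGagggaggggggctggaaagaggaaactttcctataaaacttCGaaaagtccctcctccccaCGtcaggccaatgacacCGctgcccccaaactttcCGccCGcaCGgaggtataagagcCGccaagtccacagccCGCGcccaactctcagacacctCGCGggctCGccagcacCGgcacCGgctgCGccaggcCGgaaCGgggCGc
Pbsn: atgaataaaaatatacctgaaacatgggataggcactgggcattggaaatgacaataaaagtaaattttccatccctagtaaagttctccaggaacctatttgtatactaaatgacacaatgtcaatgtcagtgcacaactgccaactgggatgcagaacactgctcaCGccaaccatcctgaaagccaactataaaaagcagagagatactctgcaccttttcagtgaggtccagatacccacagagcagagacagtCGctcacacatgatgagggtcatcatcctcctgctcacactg

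The labelled cell type, prostate epithelial, was set beside lists of markers. The lists were chosen with earlier results of these data known, so they are no independent check of the label. Within them the values went against it: most epithelial markers were at 1 CPM or less while mesenchymal ones were above 1 CPM throughout. Of 20 luminal prostate markers 8 were above 1 CPM and 8 silent, against 53.6% above and 31.3% silent among all protein-coding genes, and the list's median was 0.0445 CPM against 2.67 CPM. Foxa1, a forkhead factor of luminal cells, had 1 read in WT and 0 in the rest. Hoxb13 did not pass 0.0506 CPM in any library. The secretory products Pbsn, Msmb and Defb50 had 0 reads, which over the empty vector libraries allows up to 0.0191 CPM (3 reads, counting error only). Keratin genes Krt8 and Krt18, the usual luminal pair, were at 1.01, 0.724, 1.84 and 0.525 CPM and at 0.421, 0.633, 1.40 and 0.263 CPM, near the 1 CPM line. Krt19 was the keratin with the highest TPM, at 62.2, 38.4, 72.3 and 17.4 CPM, least in WT. Steap2, a metalloreductase of the prostate surface, was at 269, 309, 224 and 243 CPM. The androgen-responsive chaperone partner Fkbp5 was at 106, 102, 69.9 and 104 CPM and the surface protein Cd24a at 39.4, 32.1, 41.2 and 34.8 CPM. Fkbp5 was lowest in replicate 3 of the empty vector libraries.

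Basal markers gave 6 of 15 above 1 CPM. Trp63, the basal master factor, was low at 6.18, 12.4, 10.8 and 11.1 CPM, and lowest in replicate 1. Its keratin partners Krt5, Krt17 and Krt6a had 0 reads in all 4 libraries, and Krt14 did not pass 0.420 CPM. Adhesion genes of the list were present: Itga6 at 126, 139, 112 and 106 CPM and Cdh3, the gene of P-cadherin, at 111, 97.9, 59.0 and 96.1 CPM. By mean TPM Cdh3 led the 23 genes of the cadherin family with 72.3 ± 24.8, but Cdh11 at 59.7 ± 7.2 was inside that SD. Cdh11 had more reads than Cdh3 in every library, at 156, 129, 170 and 327 CPM.

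Epithelial junction genes and their regulators were above 1 CPM in 5 of 22 cases. Cdh1, the gene of E-cadherin, was at 0.927, 0.398, 0.910 and 0.485 CPM and Epcam at 0.101, 0.0905, 0.513 and 0.242 CPM. The splicing regulator Esrp1 did not pass 0.0362 CPM, the factor Ovol2 had 0 reads, and Cldn3 and Cldn4 had at most 1 read in a library. Above the line were Esrp2, Cldn1, Cgn and a pair of scaffold genes that other cells use too, Tjp1 of tight junctions at 216, 222, 104 and 149 CPM and plakoglobin Jup at 76.4, 69.4, 31.4 and 54.6 CPM. Both were lowest in replicate 3 of the empty vector libraries.

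Against that, all 13 mesenchymal regulators and all 22 mesenchymal and fibroblast genes were above 1 CPM, with medians of 70.6 and 401 CPM. Zeb1, a repressor of E-cadherin, was at 87.7, 107, 70.8 and 102 CPM, Zeb2 at 68.3, 71.8, 71.9 and 74.3 CPM and Snai2, the gene of Slug, at 78.8, 81.2, 80.9 and 81.9 CPM. Snai2 and Zeb2 hardly moved between libraries. Prrx1, a homeobox factor of mesenchyme, was at 489, 548, 551 and 532 CPM. In mean TPM Twist1 at 170, Prrx1 at 168 and Snai2 at 139 led the regulators. Twist1 varied, at 79.4 ± 19.2 CPM, so the order of these genes is not firm. Fibrillar collagen genes were among the most read of all: Col1a1 had 4201, 3962, 1536 and 4107 CPM, Col1a2 5386, 5996, 3219.9 and 6087 CPM and Col3a1 4362, 4700.1, 3782 and 4215 CPM. Replicate 3 was low for each of the 3. Vim was at 3442, 2990.2, 2559 and 4059.6 CPM. Surface proteins used to sort fibroblasts were present as well, Pdgfra at 245, 327, 194 and 271 CPM and Thy1 at 22.7, 40.0, 51.6 and 55.1 CPM.

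Smooth muscle genes were above 1 CPM in 11 of 13 cases. Acta2, smooth muscle actin, was at 263, 133, 302 and 920.0 CPM and Actg2 at 5.58, 1.81, 2.43 and 67.3 CPM. WT was higher than every empty vector library for both, as it was for Tagln at 76.7, 39.1, 162 and 273 CPM and for Cnn1 at 43.9, 37.3, 69.5 and 148 CPM. With 1 WT library no spread can be set beside those values. The myosin heavy chain Myh11, which marks mature smooth muscle, did not pass 0.607 CPM. The summed level of the list was 1961 ± 337 TPM in empty vector and 4165 TPM in WT.

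**Figure D2:**
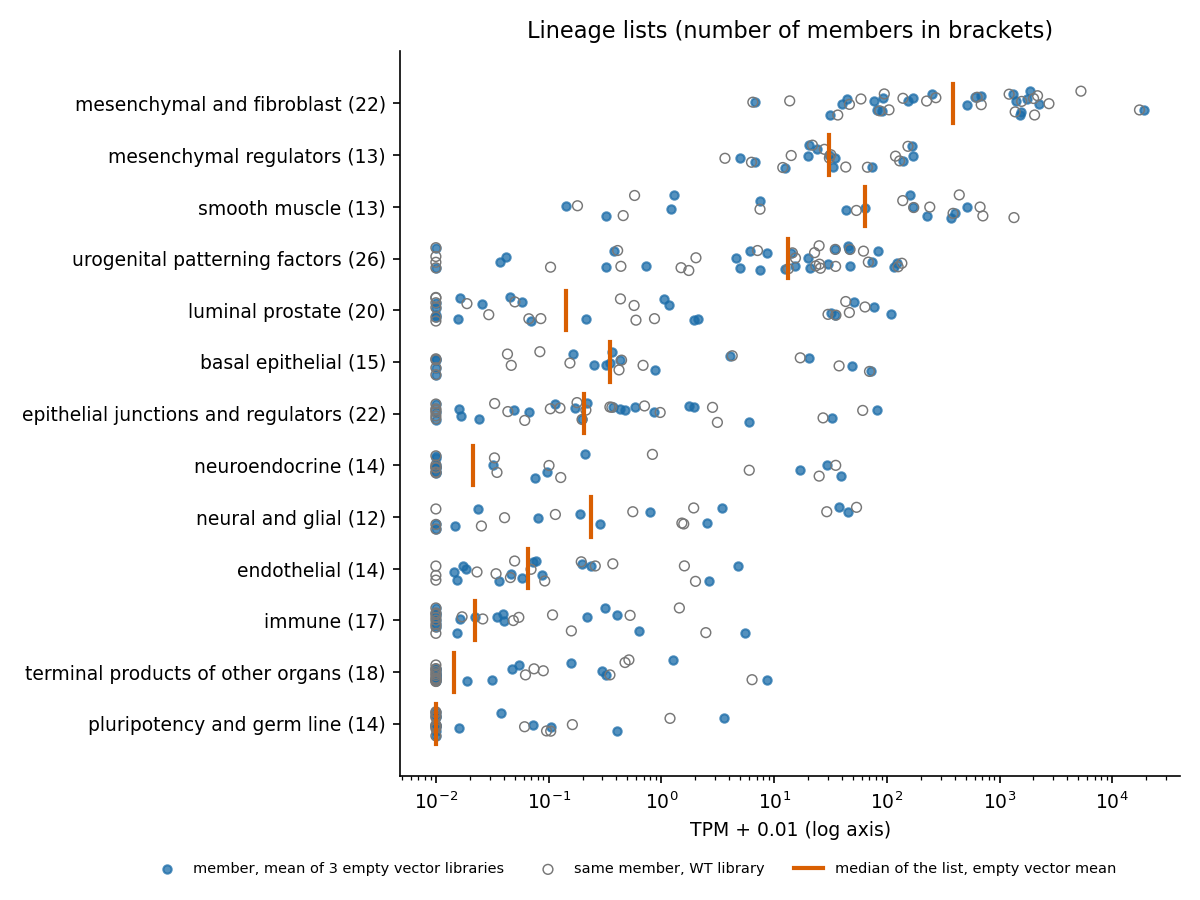
TPM plus 0.01 (horizontal, log axis) of every member of 13 lineage lists, as filled points for the mean of 3 empty vector libraries and open points for WT, with the list's median as an orange bar. The 2 mesenchymal lists lie wholly above 1 TPM. The medians of the luminal, basal, junction, neuroendocrine, neural and glial, endothelial, immune, other organ and pluripotency lists lie under 1 TPM.

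Neuroendocrine markers were above 1 CPM in 3 of 14 cases and silent in 8. Chga, Insm1 and Neurod1 had 0 reads in the 4 libraries, and the synaptic Syp did not pass 0.286 CPM. The 3 present were Foxa2, a forkhead factor known from neuroendocrine prostate tumours, at 34.7, 23.6, 19.7 and 18.6 CPM, the adhesion molecule Ncam1 at 65.5, 82.4, 69.2 and 95.2 CPM and neuron-type enolase Eno2 at 13.4, 28.4, 26.6 and 8.83 CPM. Foxa2 was highest in replicate 1 and Eno2 lowest there among the empty vector libraries.

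Factors that pattern the urogenital tract were above 1 CPM in 19 of 26 cases. Hoxa10 was at 115, 109, 100.1 and 129 CPM, Hoxa11 at 81.7, 75.9, 80.6 and 97.0 CPM, Hoxa9 at 72.8, 89.1, 59.5 and 60.7 CPM and Hoxa13, the last gene of that cluster, at 8.56, 14.5, 9.24 and 18.1 CPM. Hoxa11 has exons that overlap a gene on the other strand. Whether counting used strand is not given, so its level is uncertain. Hoxc10 and Hoxd12 had 0 reads in all 4. Orphan receptor genes Nr2f1 and Nr2f2 were at 103, 114, 108 and 109 CPM and at 128, 135, 82.4 and 94.6 CPM. The renal and duct factor Pax2 did not pass 0.0933 CPM.

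Lists of other tissues had a smaller share of members above 1 CPM than the 53.6% of all protein-coding genes. The neural and glial list came closest to it. Endothelial markers were above 1 CPM in 2 of 14 cases and silent in 4, the receptor Flt1 at 15.2, 21.4, 19.2 and 6.71 CPM and Eng. Immune markers gave 1 of 17 above 1 CPM and 10 silent, the former being Cd68 at 1.35, 2.70, 1.87 and 0.970 CPM, and the pan-leukocyte Ptprc did not pass 0.185 CPM. Of 18 terminal products of other organs only Krt10 was above 1 CPM, and of 14 pluripotency and germ line genes only Nanog, at 1.97, 2.24, 2.73 and 0.828 CPM. Near-identical Nanog pseudogenes make the source of those reads uncertain. Neural and glial markers were above 1 CPM in 5 of 12 cases and silent in 4, led by the tubulin Tubb3 and the filament Nes, while Sox10 and Rbfox3 had 0 reads. Y-linked genes were present in every library: Ddx3y at 275, 334, 440.3 and 305 CPM, Eif2s3y at 234, 299, 336 and 245 CPM, Kdm5d at 103, 133, 117 and 74.99 CPM and Uty at 100.4, 131, 156 and 98.4 CPM. Xist did not pass 0.257 CPM. The 4 Y-linked genes were lowest in replicate 1 of the empty vector libraries.

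Growth control genes were read throughout. All 19 tumour suppressors were above 1 CPM. Cdkn2a, which encodes p16 and p19Arf (chr4:89274471-89294653, minus strand), was at 519, 661, 575 and 534 CPM and at 1752 ± 222 TPM, far over the next of its list by TPM, Cdkn2b at 203 ± 37.1 TPM. WT lay inside the range of the empty vector libraries. Trp53 was at 40.7, 24.995, 22.9 and 31.4 CPM and its target Cdkn1a at 6.93, 10.9, 27.9 and 7.13 CPM, where replicate 3 was high. Rb1, the retinoblastoma gene, was among the low ones with 9.27, 10.5, 11.6 and 11.6 CPM. Of 27 oncogenes and cyclins 25 were above 1 CPM, Mycn and Mycl being the exceptions. Yap1, a coactivator of the Hippo pathway, was at 1532, 1498, 1889.5 and 1191 CPM, Cdk4 at 469, 394, 391 and 428 CPM and Myc at 123.2, 141, 135 and 80.3 CPM. Nuclear receptors were above 1 CPM in 25 of 30 cases. The glucocorticoid receptor Nr3c1 was at 171, 168, 168 and 149 CPM and the retinoic acid receptor Rarg at 137, 168, 104 and 102 CPM, while the oestrogen receptor Esr1 was at 23.6, 23.6, 19.9 and 25.3 CPM.

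All 20 proliferation genes were above 1 CPM, and 18 of the 20 were highest in replicate 1, where 36.6% of protein-coding genes above 1 CPM were highest. Under plain totals that number was 16. Mki67, the nuclear antigen of cycling cells, was at 343, 176, 149 and 317 CPM. Top2a, the topoisomerase of mitosis, had 668, 529.7, 439 and 574 CPM and Mcm3 of the replication helicase 237, 155, 104 and 176 CPM. Replicates 2 and 3 were close to each other for Mki67, and WT lay near replicate 1. The median ratio of replicate 1 to replicate 2 over the list was 1.51. It was 1.57 to replicate 3.

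Among imprinted genes 10 of 16 were above 1 CPM, against 53.6% of all protein-coding genes. Peg3, a zinc finger gene, was at 586, 370.2, 244 and 297 CPM and Meg3, a noncoding RNA, at 93.0, 135, 229 and 56.7 CPM, the one highest in replicate 1 and the other in replicate 3. Igf2 and H19, a neighbouring pair of growth factor and noncoding RNA, did not pass 0.607 CPM.

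Matrix genes were above 1 CPM in 41 of 43 cases with a median of 157 TPM, against 2.45 TPM over all protein-coding genes. Besides thrombospondin-1 and the collagens, fibronectin Fn1 was at 5579, 5206, 2114 and 4435 CPM, Sparc at 1829, 1674, 1389.5 and 2418 CPM and the small proteoglycan Bgn at 2386, 2459, 1194 and 3130.3 CPM. Replicate 3 was the lowest library for 31 of the 41 genes, where 49.1% of protein-coding genes above 1 CPM were lowest. Without replicate 3 the median coefficient of variation (CV, the SD over the mean) of the list fell from 0.305 to 0.073. Over all genes of 5 CPM or more it fell from 0.206 to 0.116. Against the low level of the list in replicate 3 stood Postn, periostin, at 1139, 1217, 2824 and 5899 CPM, Dcn, decorin, at 181, 339.9, 777 and 173 CPM and Lum, lumican, at 9.60, 21.6, 136 and 10.5 CPM. All were higher in replicate 3 than in replicates 1 and 2. Elastin Eln did not pass 0.467 CPM.

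Growth factors were above 1 CPM in 41 of 52 cases. Ptn, the heparin-binding factor pleiotrophin, led with 1893, 1507, 1740.1 and 3949.9 CPM, at 1754 ± 235 TPM, and WT lay above the range of the empty vector libraries. Its relative Mdk did not pass 0.117 CPM. Ccn1, a matrix-bound target of YAP, was at 585, 874, 675 and 687 CPM, Csf1, which drives macrophage growth, at 607, 665, 301 and 646 CPM, and Ccn2 at 149, 369.6, 253 and 142 CPM. Pdgfd was the most uneven of those named, with 194, 449, 1110.4 and 234 CPM. Vegfa, the main vessel growth factor, was at 188, 316, 372 and 144 CPM, least in replicate 1 and WT. Stromal factors of the prostate were present, Fgf7 at 172, 163, 189 and 258 CPM and Fgf10 at 89.4, 117, 69.2 and 147 CPM, and epithelial Bmp7 had 0 reads.

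Cytokines and chemokines were above 1 CPM in 20 of 31 cases, against 53.6% of all protein-coding genes. None of the 20 was highest in replicate 1, where 36.6% of protein-coding genes above 1 CPM were highest. After Spp1 the highest by TPM were Ccl2, which attracts monocytes, at 118, 234, 271 and 161 CPM, its neighbour Ccl7 at 57.0, 160.2, 176 and 122 CPM and the alarmin Il33 at 77.6, 202, 207 and 41.9 CPM. Replicates 2 and 3 lay together and above replicate 1 for all of these. Cxcl12, a stromal chemokine, was at 414, 445, 342 and 643 CPM. Its signalling receptor Cxcr4 did not pass 0.0233 CPM, while the scavenging receptor Ackr3 was at 27.8, 39.0, 53.7 and 25.7 CPM. Il1b and Tnf had 0 reads in all 4 libraries.

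Secreted proteases and their inhibitors were above 1 CPM in 31 of 35 cases. Serpinh1, a collagen chaperone, was at 998, 1424, 1304 and 1229 CPM, cathepsin D (Ctsd) at 414, 588, 400.3 and 498 CPM, cystatin C (Cst3) at 286, 319, 369 and 490.0 CPM and Lox, which cross-links collagen, at 919, 1146, 1575 and 1281 CPM. The metalloproteinase Mmp14 was at 245, 299, 215 and 332 CPM. Mmp3 was at 46.2, 66.0, 553 and 94.2 CPM, so that its mean rests on replicate 3. Mmp7, an epithelial enzyme, had 0 reads.

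On the surface, integrins were above 1 CPM in 15 of 23 cases. That share, like that of the receptor kinases below, is not far from the 53.6% of all protein-coding genes. Itgb1, the shared beta chain of fibronectin and collagen receptors, was at 1728, 1897, 2760.3 and 2589 CPM and Itgav at 418, 391, 442 and 612 CPM, while Itga5 was at 241, 257, 163 and 260.5 CPM. Receptor kinases were above 1 CPM in 24 of 38 cases, the 4 highest by TPM being Axl at 929, 1039.8, 638 and 994 CPM, the collagen receptor Ddr2 at 616, 540.5, 386 and 578 CPM, Fgfr1 at 343, 327, 206 and 357 CPM and Epha2 at 198, 172, 86.1 and 135 CPM. All 4 were lowest in replicate 3 of the empty vector libraries, as were 49.1% of protein-coding genes above 1 CPM. Kit did not pass 0.0467 CPM, and Ntrk2 had 0 reads. Cytokine and TGF-beta receptors were above 1 CPM in 31 of 34 cases, with Tnfrsf12a, the receptor of TWEAK, at 267, 219, 357 and 318 CPM and Il1rl1, the receptor of Il33, at 446, 685, 286 and 279.8 CPM. Ligand and receptor of that pair were thus both read in every library. Of 36 further surface antigens 29 were above 1 CPM. Bsg (basigin) was at 534, 628, 927 and 751 CPM, Ly6a, the gene of Sca-1, at 142, 307, 186 and 263 CPM, Cd44 at 847, 692, 576 and 924 CPM and Cd34 at 400.3, 321, 249 and 514 CPM. The prostate antigens split: Steap1 was at 70.6, 92.5, 90.2 and 88.9 CPM, whereas Folh1, the gene of PSMA, had 0 reads, and Psca did not pass 0.140 CPM.

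In genes of interferon defence replicate 2 of the empty vector stood apart. Interferons signal through factors such as STAT2 and IRF9, which bind a repeat of GAAA in promoters and raise antiviral enzymes, sensors of viral RNA and the loading of peptides on class I molecules. Of the 23 members of the list of innate sensors and interferon genes above 1 CPM, 20 were highest in replicate 2, where 32.4% of protein-coding genes were highest. That number was 19 with plain totals. Isg15, a ubiquitin-like modifier, was at 82.1, 317, 111 and 143 CPM and Ifit1, which binds viral RNA, at 142, 470.3, 308 and 357 CPM. Ifit3 was at 30.4, 289, 77.8 and 85.9 CPM. Stat2 was at 73.3, 245, 58.6 and 104 CPM and Irf7, which amplifies the response, at 26.0, 156, 33.6 and 43.9 CPM. Replicate 2 was highest for each of the 5, and WT lay between it and the other empty vector libraries. The median CV of the 23 was 0.535 with all 3 libraries and 0.170 without replicate 2. The adaptor Mavs was at 31.3, 33.9, 19.1 and 32.5 CPM and the sensor gene Tlr4 at 55.5, 59.3, 63.6 and 80.8 CPM. Ifnb1, the gene of interferon beta, had 0.101, 0.615, 0.233 and 0.283 CPM, under 1 CPM in all. The 13 interferon alpha genes were silent, counting only reads that align to a single place. The leukocyte gene Ptprc had 0 reads in replicate 2, and the summed level of the 17 immune markers was 5.64, 8.87, 6.90 and 4.78 TPM. Their part in this result was not tested.

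The 15 genes of class I antigen presentation, all above 1 CPM in the mean, were highest in replicate 2 in 12 cases and lowest in replicate 1 in 12, where 32.5% of protein-coding genes were lowest. H2-K1 (chr17:33996017-34000347, minus strand), a class I heavy chain, was at 3.59, 41.0, 54.2 and 12.7 CPM, and H2-D1 at 28.4, 161, 89.9 and 76.1 CPM. The peptide transporter Tap1 was at 6.84, 42.0, 11.1 and 23.05 CPM and the light chain B2m at 288, 756, 456 and 598 CPM. The folding factors Calr and Pdia3 did not share this order, with 1186, 1060.0, 826 and 1543 CPM and 1096, 1084, 1099 and 1555 CPM. Heavy chain genes are near-identical copies of each other, so reads that fit several were set aside and their levels are uncertain. Class II genes were above 1 CPM in 3 of 7 cases, and the class II chains H2-Aa and H2-Ab1 and the activator Ciita did not pass 0.0933 CPM.

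**Figure D3:**
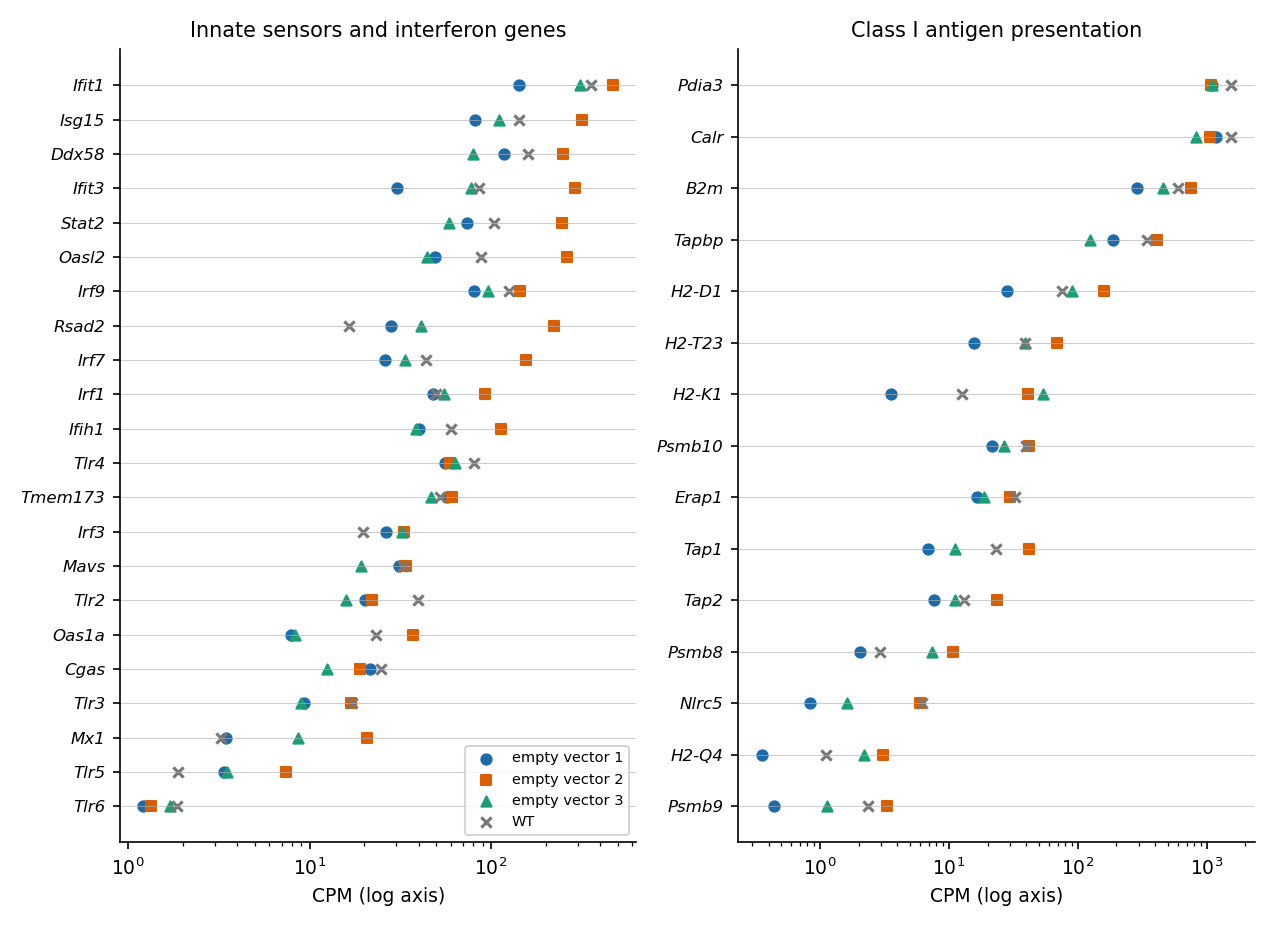
CPM (horizontal, log axis) of the members above 1 CPM of the interferon list (22 of the 23 genes, left) and the class I list (15 genes, right) in each library, 1 symbol a library. The square of empty vector replicate 2 is the rightmost empty vector symbol for 19 of the 22 genes on the left and 12 of 15 on the right, and the circle of replicate 1 the leftmost for 12 of 15 on the right.

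A rule chosen after these values were seen took the protein-coding genes of 5 CPM or more that were at least 3 times higher in 1 empty vector library than in each of the others. Of 10237 genes it named 25 for replicate 2, 15 for replicate 3 and 2 for replicate 1, Magel2 and the chemokine gene Cxcl13. Of the 25, 6 are in the interferon list (Irf7, Stat2, Ifit3, Oas1a, Oasl2 and Rsad2), and others include Bst2, the tetherin gene, at 88.1, 643, 140.1 and 188 CPM, Ifi44 at 37.9, 425, 84.5 and 146 CPM and Oas3, a synthase of 2-5A, at 4.26, 71.8, 4.36 and 8.32 CPM. Promoter windows of RefSeq were matched for 21 of the 25 genes. The letters GAAANNGAAA, searched on both strands, were in 10 of their 25 windows (40%), in 0 of 13 windows of the genes of replicate 3 and in 3.44% of all 32851 windows. As the 25 genes were picked for moving together, the share describes them and tests nothing. The windows of 3 genes that hold the letters are printed to show where they lie, with each match in capitals. A match on the opposite strand reads as TTTCNNTTTC. Ifit3 lies on the plus strand (chr19:34583279-34583578) with matches that begin 156 and 122 bases before the start. Rsad2, the gene of viperin, is on the minus strand (chr12:26456403-26456702) with a match 120 bases before it. Oas3, also on the minus strand (chr5:120777610-120777909), has a match 75 bases before it.
Ifit3: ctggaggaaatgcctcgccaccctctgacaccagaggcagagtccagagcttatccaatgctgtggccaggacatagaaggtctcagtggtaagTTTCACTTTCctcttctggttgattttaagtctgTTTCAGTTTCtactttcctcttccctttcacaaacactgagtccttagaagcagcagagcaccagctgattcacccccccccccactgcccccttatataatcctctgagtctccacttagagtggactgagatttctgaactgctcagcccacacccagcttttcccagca
Rsad2: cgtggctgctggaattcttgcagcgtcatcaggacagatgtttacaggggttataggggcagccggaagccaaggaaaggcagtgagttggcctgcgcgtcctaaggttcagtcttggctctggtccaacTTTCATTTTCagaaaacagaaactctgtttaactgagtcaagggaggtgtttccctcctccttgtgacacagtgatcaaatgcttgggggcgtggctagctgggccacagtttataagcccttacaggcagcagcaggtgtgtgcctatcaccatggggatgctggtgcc
Oas3: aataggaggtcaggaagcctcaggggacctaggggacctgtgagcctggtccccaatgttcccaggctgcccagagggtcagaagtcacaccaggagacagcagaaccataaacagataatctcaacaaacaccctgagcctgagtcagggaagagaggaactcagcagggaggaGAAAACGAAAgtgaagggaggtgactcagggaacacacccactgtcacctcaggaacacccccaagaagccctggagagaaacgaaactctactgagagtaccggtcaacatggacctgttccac

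Whole families were silent, as the plot of family shares shows. Of 64 families of related symbols 16 had over 90% silent members and 8 had no other kind. Olfactory receptors were silent in 1045 of 1062 cases and vomeronasal receptors in 288 of 297. All 113 immunoglobulin heavy variable genes, all 100 kappa variable genes, all 22 alpha-defensins and all 7 genes of seminal vesicle secretion were silent. Reads that fit several near-identical members were not counted under any gene, and their part in these silent calls was not tested. Of the 26 kallikreins, which include secreted proteases of the prostate, none was above 1 CPM and 22 were silent. In WT, 1044 of the 1045 silent olfactory receptors had 3 reads or fewer, as did every silent member of the other families just named. Olfr960, the highest olfactory receptor by TPM, was at 1.82, 1.29, 5.76 and 2.77 CPM. At the other end all 17 tRNA synthetases and all 6 members of the replication helicase were above 1 CPM, and so were 77 of 82 cytosolic ribosomal proteins, 38 of 40 proteasome subunits and 52 of 55 initiation factors.

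Some families had a few members above 1 CPM among many silent or near silent ones. Keratins were silent in 35 of 53 cases and between the limits in 13, with 5 above 1 CPM, Krt19, Krt13, Krt10, Krt80 and Krt8. Among killer cell lectin-like receptors, surface proteins of natural killer cells, 13 of 24 were silent, 7 between and 4 above 1 CPM, and Klra4 stood at 100.4, 161, 279.6 and 131 CPM, or 500 ± 228 TPM. The next of that family, Klra6, had 1.75, 3.10, 4.97 and 1.45 CPM, so replicate 3 was highest for both. Mage genes were silent in 15 of 21 cases, yet Maged1 was at 605, 669, 438 and 812 CPM. Mas-related receptors were silent in 15 of 20 cases and Mrgprf was at 27.9, 26.0, 14.8 and 38.6 CPM. Clustered Hox genes were mixed, with 22 of 39 above 1 CPM and 10 silent, near the 53.6% and 31.3% of all protein-coding genes. Claudins were silent in 19 of 33 cases, between in 10 and above 1 CPM in 4, with Cldn12 highest by TPM at 78.1, 96.1, 87.9 and 71.8 CPM.

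**Figure D4:**
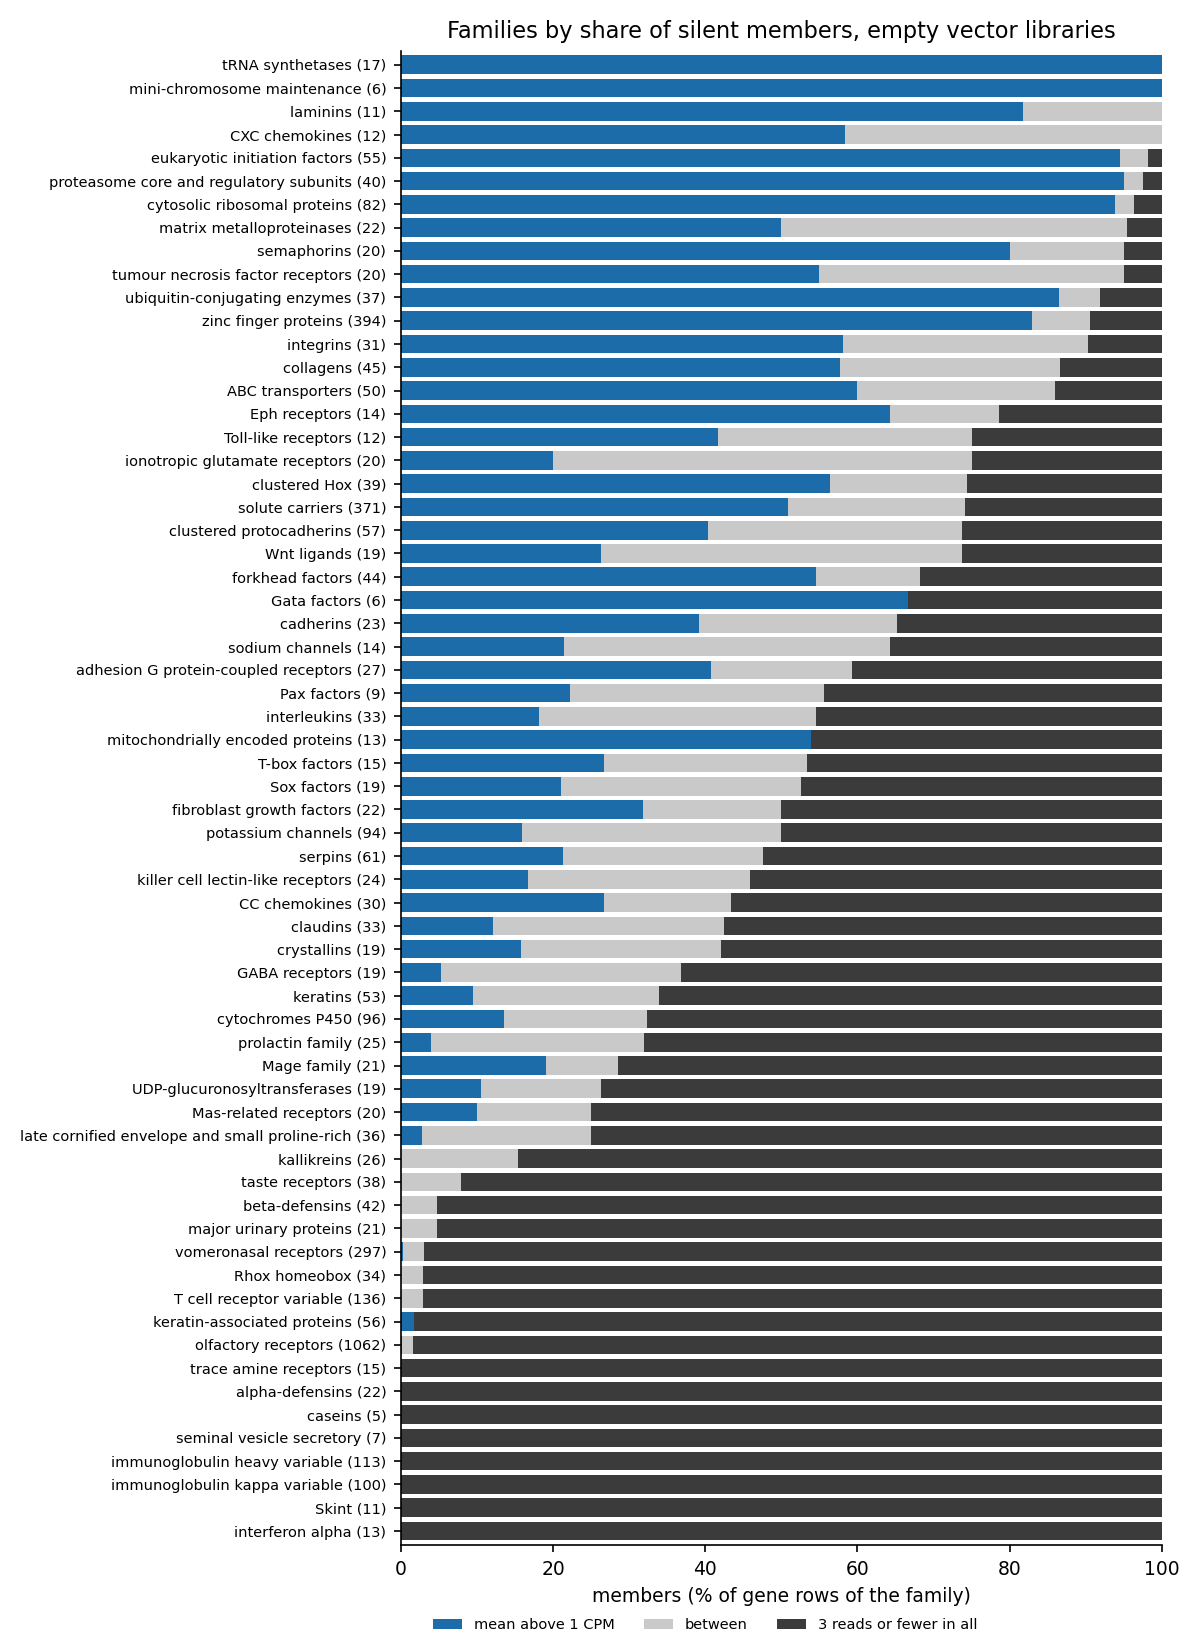
Share of members (horizontal, percent) above 1 CPM in the mean (blue), silent with 3 reads or fewer over the 3 empty vector libraries (black) or between (grey), for 64 families with their size in brackets. tRNA synthetases and the replication helicase are wholly blue, and the 8 families at the foot are wholly black.

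The 3 empty vector libraries differed far more than counting allows. Of 15959 genes tested, 13509 (84.6%) varied beyond counting error by a chi-square test with Benjamini-Hochberg adjustment. Among the 10922 genes of 5 CPM or more the median CV was 0.206. It was 0.116 without replicate 3. A CV under 0.1 was found in 16.3% of them and over 0.5 in 3.59%, and 22 genes exceeded 1. Between replicates 1 and 2, 4.305% of the genes above 1 CPM differed by over 2-fold, against 14.1% between replicates 1 and 3 and 8.63% between 2 and 3. WT differed over 2-fold from replicate 1 in 4.90%, from replicate 2 in 8.60% and from replicate 3 in 11.1% of genes. By this share replicate 3 was farther from replicate 1 than WT was.

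The steadiest protein-coding genes of 5 CPM or more began with the ubiquitin ligase Wwp1 at 61.7, 61.5, 61.7 and 55.9 CPM. Ctnnb1, the gene of beta-catenin, at 629.8, 633, 631 and 814 CPM followed, then Pomk, Acp2 and Tle6. Their chi-square over its degrees of freedom was 0.0166 to 0.218, less than the 1 that counting error gives on average. They were picked as the lowest values, so they are not shown to be steadier than other genes. The least steady of the protein-coding genes of 5 CPM or more was Magel2, an imprinted gene of the Mage family (chr7:62377010-62381640, plus strand). Magel2 was at 24.4, 0.833, 0.443 and 6.85 CPM, with a CV of 1.60. It was high in replicate 1 and under 1 CPM in the other empty vector libraries. Oas3, Oas2, Ifi44 and Rsad2 followed through replicate 2. Through replicate 3 came Mmp3, Lum, the protease inhibitor Serpinb2 at 3.52, 2.14, 23.3 and 5.68 CPM, the uncoupling protein Ucp1 at 0.708, 7.19, 28.6 and 0.889 CPM, Mmp10 at 1.74, 4.38, 23.1 and 2.61 CPM, Cthrc1 at 6.59, 12.8, 69.2 and 12.7 CPM and Ankrd37 at 1.26, 4.29, 18.1 and 2.53 CPM. WT was below replicate 3 for each of these 7 genes. They stand here because replicate 3 was high, so the lower WT level is no separate result. The mitophagy receptor Bnip3 was at 14.7, 46.3, 155 and 35.8 CPM.

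Of the 15 genes at least 3 times higher in replicate 3, 4 lie within 689 kb of chromosome 9 (chr9:7184520-7873186): Dcun1d5 at 730.4, 833, 2680.5 and 801 CPM, Mmp3, Mmp10 and the apoptosis inhibitor Birc3 at 17.0, 19.5, 96.7 and 33.9 CPM. The stretch runs from the first to the last of these 4, which were highest in replicate 3 by the rule that picked them. It holds 7 protein-coding genes of 5 CPM or more. Birc2, which the rule did not pick, was at 227, 399.9, 966 and 250.2 CPM. Tmem123, also not picked, was at 1147, 1381, 2323 and 1065 CPM. Both were highest in replicate 3, and Mmp13 was not, at 46.7, 138, 137 and 32.5 CPM. Of all protein-coding genes above 1 CPM, 31% were highest in replicate 3. The stretch was singled out after its values were seen.

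Replicate 3 was also lower for long genes. Against the mean of the 3 libraries its median log2 ratio was 0.08 in the shortest of 5 equal classes of genes by merged exon length and -0.27 in the longest, while replicate 1 went from -0.11 to 0.13. By GC content of the longest transcript replicate 3 went from 0.15 in the lowest of 5 classes to -0.22 in the highest. With genes in 3 equal classes by each measure, its median was 0.26 in short genes of low GC and -0.55 in long genes of high GC. At least 3 times lower than in both others were 15 genes in replicate 1, among them H2-K1, H2-D1 and Psmb8, and only Rgs5 in replicate 2. The 21 such genes of replicate 3 had a median exon length of 11388 bases, against 4764 over all protein-coding genes of 5 CPM or more. They include Hspg2, the basement membrane proteoglycan perlecan, at 965, 805, 237 and 630.1 CPM, the motor Dync1h1 at 557, 512, 135 and 387 CPM and Fasn, the fatty acid synthase, at 645, 516, 162 and 439 CPM. The low matrix and receptor values of replicate 3 above stand beside this slope. Its part in them was not tested.

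**Figure D5:**
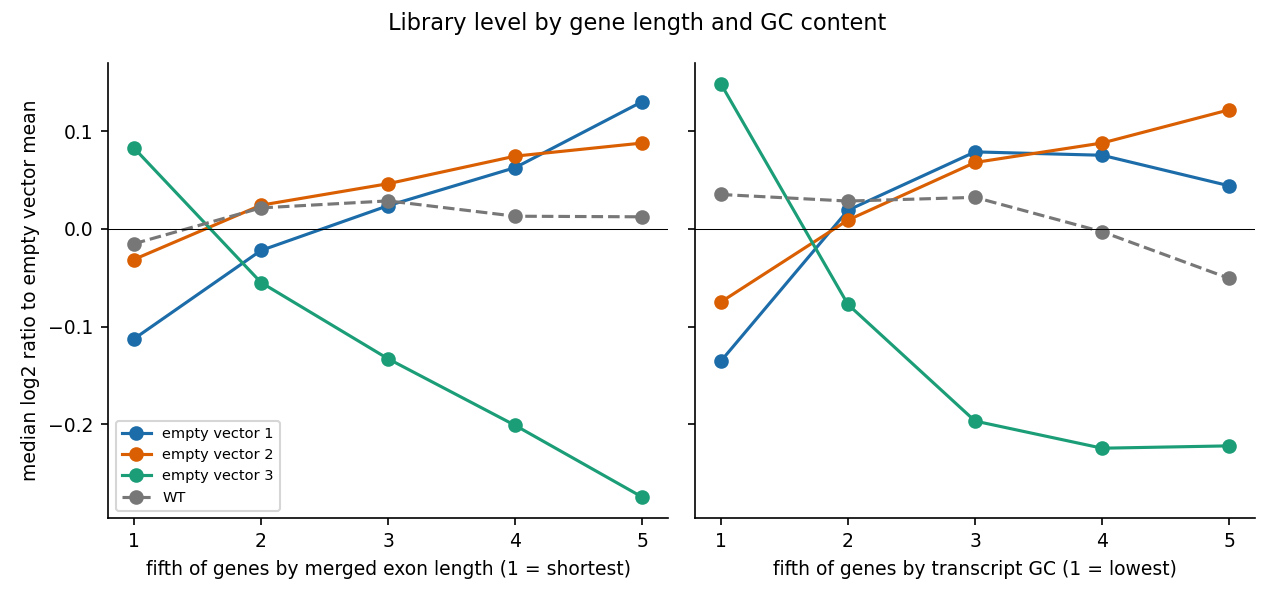
Median log2 ratio of each library to the mean of the 3 empty vector libraries (vertical) in 5 equal classes of the genes by merged exon length (left) and transcript GC content (right). The line of empty vector replicate 3 falls from 0.08 to -0.27 with length and from 0.15 to -0.22 with GC, and that of replicate 1 rises from -0.11 to 0.13 with length.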

How the data were processed

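Each library was an RNA-seq sample of TRAMP-C1 cells. STAR and HTSeq with the GRCm38 build made the read counts per gene, per the submitters' processing notes, and the counts were deposited as 1 table per lane. Tool versions, the gene models and whether counting used strand are not given in the sources read here. Lane tables of a library agreed within counting error (chi-square over its degrees of freedom 0.9994 to 1.001) and were summed. Rows that name no gene stayed out: 6.05 to 6.93% of reads without a feature, 1.22 to 1.48% ambiguous, 36.1 to 45.3% aligned to several places, and 92 spike-in rows with at most 1 count. IDs were matched to symbols and merged exon lengths of GENCODE M21 (46091 of 46603).

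CPM used TMM factors (edgeR 4.0.16, R 4.3.3). TPM used merged exon lengths. Spread beyond counting error was a chi-square test over the 3 empty vector libraries with Benjamini-Hochberg adjustment, tested on simulated data. Python 3.11.15, pandas 2.3.3 and scipy 1.17.1 were used. Alternatives were plain totals, DESeq2 1.42.0 size factors, other minimum levels, TPM, WT alone and leaving out each replicate. The rule for named genes gave 250. It took the top 15 nuclear genes by TPM, the top 5 by CPM and up to 5 members of each list by TPM. It also took the first 4 listed of each lineage list, the top member of each family and the Y-linked list with Xist. The last were the 12 most and 5 least variable protein-coding genes of 5 CPM or more. Of the 250 genes, 54 have exons that overlap a gene on the other strand. As the strand setting of the counting is not given, their levels are uncertain. All other genes in the text were picked after their values were seen. Members and lists were chosen with earlier results of these data known. Intervals and floors cover counting error only, as no molecular identifiers were used. Some listed genes are not reported here by name.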

Additional observations from a re-analysis of the deposited data

How the results depend on the processing

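The number of genes above 1 CPM (13194) ranged from 13110 to 13252 when each replicate was left out, and the number of genes varying beyond counting error (13509) from 10491 to 11921. The share of reads in the 100 most read genes ranged from 17.3 to 18.6% in the same way and was 26.9% when TPM took the place of reads, which is another quantity. The median CV (0.206) ranged from 0.116 to 0.221, the lowest without replicate 3. Of 155 alternatives for the list counts 151 stayed within 1.5 times. In the WT library alone 5 luminal markers, 2 products of other organs and 0 pluripotency genes were above 1 CPM, and with TPM above 1 there were 2 products of other organs. The cause was not tested. Of 1250 alternatives for the means of named genes 1232 moved by less than 1 SD, and the other 18 were rescalings of genes of very small SD. Leaving out 1 of 3 libraries cannot move a mean by 1 SD, so only the rescalings could fail here. The library order within 4 lists was recounted under other scalings, a check chosen after seeing the data, and all 10 counts stayed within 1.5 times. The other scalings moved an empty vector library by at most 0.0965 in median log2, so this check is weak. No paired analysis was possible because no groups are compared and WT has a single library. Genes with near-identical copies and overlapping genes are uncertain, and 3 reads limit detection to 0.0506 to 0.0700 CPM in a library.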
